A study of Mus musculus with 10 samples.

Results

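Nanog, Pou5f1 and Sox2 encode the transcription factors that hold mouse embryonic stem cells in the pluripotent state, and their chromatin was read here from 10 lists of ChIP-seq peaks, genomic stretches enriched for a protein or histone mark. A peak was taken when it overlapped a gene span on mm9 extended by 20 kb on each side, and 135 of the 543779 deposited peaks did so. The spans were chromosome 6 at 122657586-122664651 for Nanog, chromosome 17 at 35642977-35647722 for Pou5f1 and chromosome 3 at 34548927-34551382 for Sox2, all on the plus strand. The cells were R1E mouse embryonic stem cells of a C57BL/6X129Sv mix background, grown with serum and leukemia inhibitory factor. They were untreated or were given 0.5 uM Adriamycin (doxorubicin, a topoisomerase II poison that breaks DNA) for 8 h. Each of 5 targets had 1 library per condition: H3K4me3 (promoters), RNA polymerase II (Pol II), H3K79me2 (the 5′ part of transcribed genes), H3K27me3 (Polycomb repression) and hnRNP L (an RNA-binding protein). With 1 library per target and condition no difference has a replicate check, and no p-value is given. R1E is a single line, and in bulk chromatin a loss in some of the cells cannot be told apart from a lower level in each of them.

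Pou5f1 (also called Oct4) has a POU domain, Sox2 an HMG box and Nanog a homeodomain. Oct4 and Sox2 bind DNA side by side, and the factors act on their own genes and on each other's through promoters and enhancers. In embryonic stem cells all 3 genes are transcribed, and genes that define a cell's identity often carry unusually wide H3K4me3 peaks. Pol II at such a gene stands for initiating, paused and elongating polymerase together, and H3K79me2 is laid down by Dot1l along the transcribed part.

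The promoters that the peaks below cover are shown first, as the 250 bases before each gene's start in RefSeq on GRCm38.p6 (another build than the peaks, so single bases were not placed within peaks). The table held 5 starts for the 3 genes, and the most upstream start of each is printed. Capitals mark exact matches on either strand to ATGCAAA (a POU site), ACAATG (a SOX site) or GGGCGG (an SP or KLF box).
Nanog, chr6:122707239-122707488, plus strand: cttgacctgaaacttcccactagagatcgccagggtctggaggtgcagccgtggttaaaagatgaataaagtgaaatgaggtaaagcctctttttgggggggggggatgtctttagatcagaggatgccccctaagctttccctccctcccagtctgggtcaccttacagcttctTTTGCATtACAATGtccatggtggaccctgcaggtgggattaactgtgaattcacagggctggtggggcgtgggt
Pou5f1, chr17:35505782-35506031, plus strand: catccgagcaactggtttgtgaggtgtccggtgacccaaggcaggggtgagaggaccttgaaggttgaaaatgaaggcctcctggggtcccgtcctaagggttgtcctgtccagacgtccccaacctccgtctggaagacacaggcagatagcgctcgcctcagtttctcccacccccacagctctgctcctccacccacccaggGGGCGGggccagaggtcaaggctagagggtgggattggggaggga
Sox2, chr3:34649745-34649994, plus strand: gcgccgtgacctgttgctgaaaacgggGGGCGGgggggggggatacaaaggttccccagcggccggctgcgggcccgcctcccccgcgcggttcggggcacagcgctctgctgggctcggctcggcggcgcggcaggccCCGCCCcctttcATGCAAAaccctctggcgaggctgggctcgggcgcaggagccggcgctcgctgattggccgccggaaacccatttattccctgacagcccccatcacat

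The Nanog promoter held a POU site and a SOX site 1 base apart, the arrangement that Oct4 and Sox2 share on DNA. The POU site lay 75 to 69 bases and the SOX site 67 to 62 bases before the start. The Sox2 promoter held a POU site 99 to 93 bases before the start and 2 GGGCGG boxes. The printed Pou5f1 promoter held 1 GGGCGG box, 45 to 40 bases before the start, and neither of the other sites. Before the second Pou5f1 start, which is not printed, a SOX site lay 158 to 153 bases away. Counted from the second Nanog start, the POU site lay 151 to 145 and the SOX site 143 to 138 bases before it. Among all 32851 promoters of the table, cut to the same 250 bases, ATGCAAA was found in 4.12%, ACAATG in 10.7% and GGGCGG in 32.7%. The full octamer ATGCAAAT (1.6% of promoters; every octamer also holds ATGCAAA) and the TATA box TATAAA (12.4%) had no exact match in these 3 windows.

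All 3 genes carried the marks of active promoters in both conditions. No other marker genes were used, so this is no separate check of the embryonic stem cell label. The H3K4me3 peak over the start of each gene overlapped Pol II and H3K79me2 and no H3K27me3, before and after Adriamycin. Of all H3K4me3 peaks, 28.9% had this combination in untreated cells and 23.2% after Adriamycin. H3K4me3, Pol II and H3K79me2 each had a peak over the start base of each gene in untreated cells, 9 peaks in all, and 8 of these 9 pairings of target and gene had one after Adriamycin. The exception was H3K79me2 at Sox2, where a gap of 255 bp between 2 peaks lay over the start. No hnRNP L peak lay in any window in either condition, and no H3K27me3 peak lay in the Nanog or Pou5f1 window. The hnRNP L lists held only 1120 untreated and 1022 Adriamycin peaks. Of all H3K4me3 peaks, hnRNP L overlapped 0.109% in untreated cells and 0.0935% after Adriamycin, so its absence is the usual case. H3K27me3 overlapped 28.1% and 23.5% of them.

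**Figure D1:**
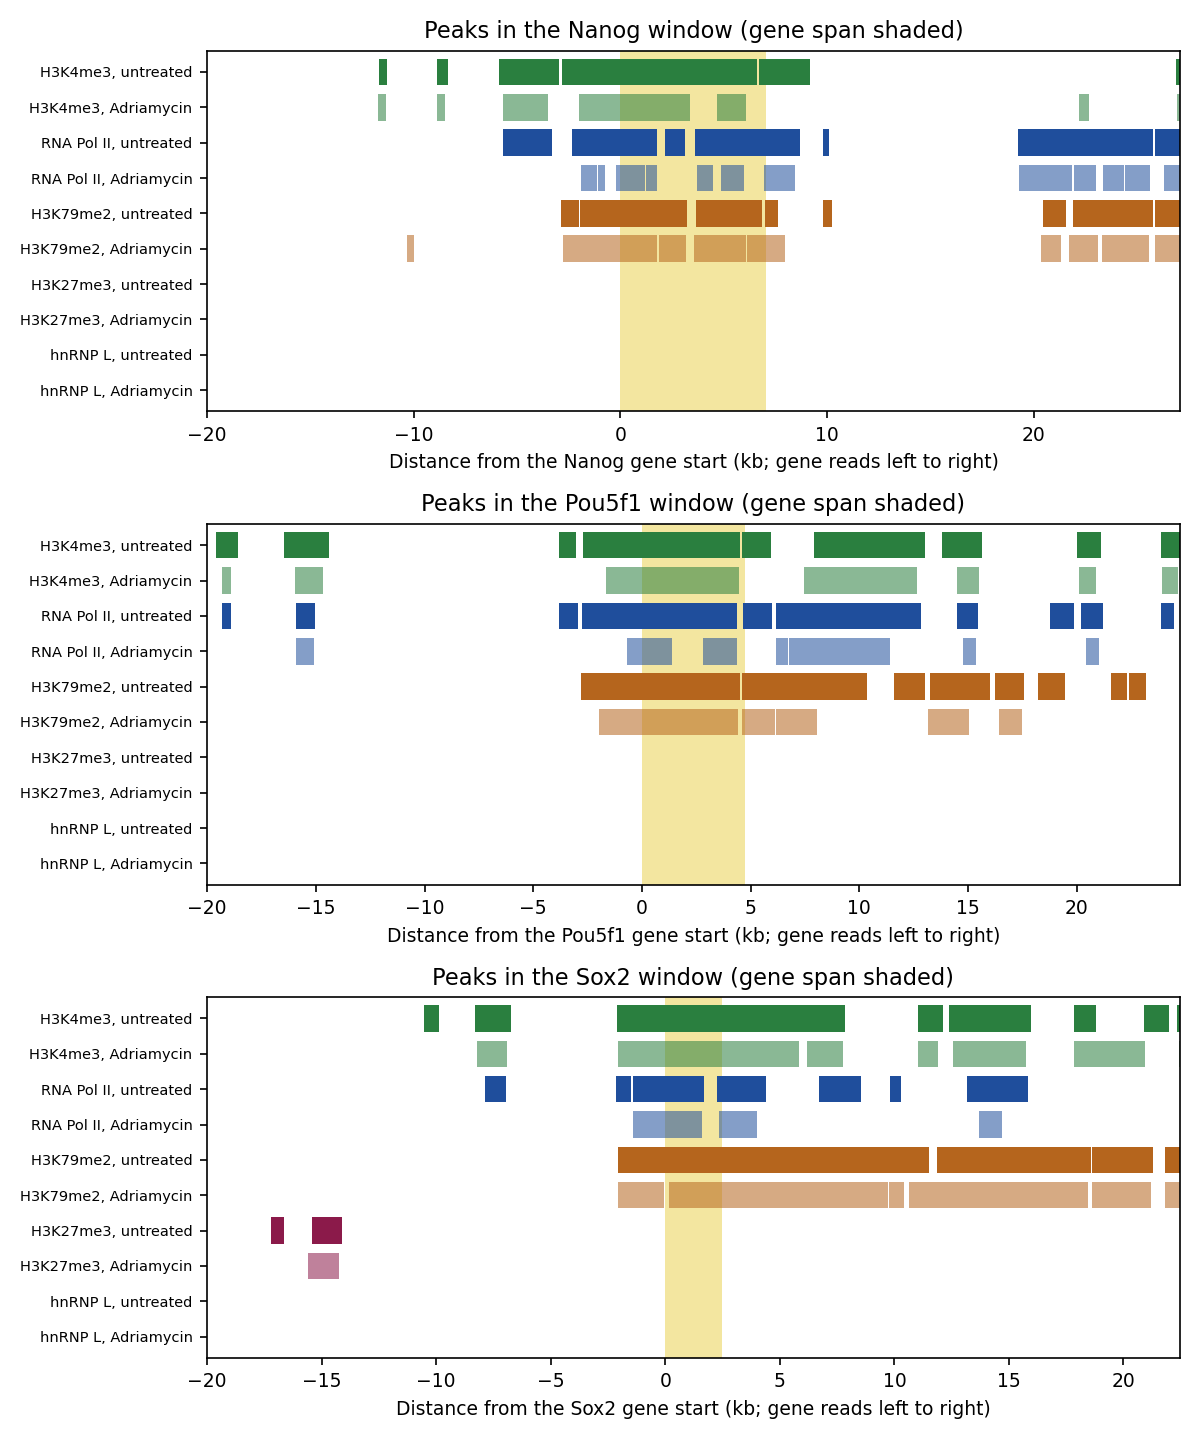
Peaks of all 10 lists around each gene, by distance from the gene start in kb, with the gene span shaded; full-colour bars are untreated and paler bars Adriamycin peaks, and empty rows hold no peak. The Pol II row of Nanog shows 8 untreated peaks and 12 Adriamycin peaks, while the H3K79me2 rows of Nanog and Sox2 cover nearly the same length in both conditions.

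At Nanog the H3K4me3 peak over the start was among the widest of the genome. In untreated cells it was 9417 bp wide and ran from 2818 bp upstream to 6598 bp downstream of the start, so that H3K4me3 peaks covered 98.6% of the gene span. It ranked 75th by width of 38421 peaks. After Adriamycin the peak over the start was 5373 bp wide, from 2005 bp upstream to 3367 bp downstream, and ranked 333rd of 41705. Both had a score of 3100. The score is the authors' value for each peak from the peak caller, and it ranks peaks only within its own list. Scores of paired peaks are printed side by side as a description, and a difference between them is not read as a change, since the lists are not on 1 scale (2414 untreated and 269 Adriamycin Pol II peaks scored 3100 or more). Many peaks share the score 3100, and peaks at or above it are called here peaks at the ceiling.

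The flanks of the Nanog domain were shorter too. An upstream H3K4me3 peak from 5897 to 2956 bp before the start had a score of 618.78 in untreated cells, and its Adriamycin partner from 5702 to 3499 bp had 177.76. An untreated peak of 2497 bp across the gene's end (score 404.94) had no partner, meaning that no peak in the other list for H3K4me3 shared at least 1 bp with it. Within the gene's 3′ part the Adriamycin list held a separate peak of 1375 bp from 4694 bp on (score 170.61), where the untreated cover was continuous.

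Pol II at Nanog formed 2 strong untreated blocks, one over the promoter and one over the gene's 3′ part. The promoter block was 4115 bp wide, from 2358 bp upstream to 1756 bp downstream, with a score of 3100. The 3′ block was 5073 bp wide, from 3607 to 8679 bp, also with 3100. Between them lay a peak of 971 bp with a score of 319.89.

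After Adriamycin the stretch of the promoter block held 4 peaks with scores of 495.86, 62.09, 329.91 and 164.78, the third of which covered the start and was 1395 bp wide. The stretch of the 3′ block held 3 peaks with scores of 98.17, 173.8 and 99.26, and the peak between the blocks had no partner. Pol II covered 6.19 kb of the gene span before treatment and 3.76 kb after it (87.6% and 53.2% of it). An untreated Pol II peak of 2366 bp (score 130.47) lay from 5669 to 3304 bp upstream, under the upstream H3K4me3 peak, and had no partner either.

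H3K79me2 covered Nanog to nearly the same length in both lists, unlike Pol II. It lay over 6.47 kb of the gene span before treatment and 6.53 kb after it (91.6% and 92.4%). The peak over the start had a score of 3100 in both lists and was 5195 bp wide in untreated cells and 4556 bp after treatment. The next peak into the gene had a score of 1694.32 in untreated cells, and the highest of its 2 partners had 973.53. The contrast with Pol II was also seen over the genome. In genome tiles as long as the Nanog window, the median log2 ratio of covered length was -0.07 for H3K79me2 and -0.38 for Pol II. These are ratios of Adriamycin over untreated with 1 kb added, in tiles where either list covered at least 1 kb.

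The downstream flank of the Nanog window reached the side of Slc2a3, a glucose transporter gene that is the next coding gene downstream in the GRCm38 annotation. No annotation on mm9 was used, so peaks there were not assigned to it. From 19220 bp on, 3 untreated Pol II peaks with a score of 3100 lay side by side. Their partners after Adriamycin reached 2598.21, 371.83 and 388.79.

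Pou5f1 kept its H3K4me3 peak, with shorter cover on both sides. The peak over the start was 7209 bp wide in untreated cells, from 2706 bp upstream to 4502 bp downstream (233rd of 38421 by width). After Adriamycin it was 6092 bp wide, from 1628 bp upstream to 4463 bp downstream (187th of 41705). Both scores were 3100. H3K4me3 peaks were narrower over the whole list too, with a median width of 1271 bp in untreated cells and 1060 bp after Adriamycin. The downstream edge of the peak over the Pou5f1 start differed by less than its upstream edge. In the untreated list, though, a peak of 1298 bp (score 240.71) followed it, from 4624 to 5921 bp downstream, and had no partner. Untreated cover around the start thus ran further on both sides. A weak untreated peak of 808 bp further upstream (score 63.39) had no partner either.

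Pol II covered nearly all of Pou5f1 as 1 peak in untreated cells and lay on it in 2 separate pieces after Adriamycin. The untreated peak over the start was 7132 bp wide, from 2746 bp upstream to 4385 bp downstream, with a score of 1937.8, and ranked 187th by width of 81069. Its partners were a peak of 2103 bp over the start (from 693 bp upstream to 1409 bp downstream, score 163.44) and a peak of 1557 bp at the 3′ part (from 2799 bp, score 74.7). Pol II covered 94.4% of the gene span before and 62.5% after. Untreated peaks on either side, of 884 bp upstream (score 94.95) and 1317 bp downstream (score 179.94), had no partner.

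H3K79me2 stayed on the Pou5f1 gene and was shorter past its end. The peak over the start was 7320 bp wide in untreated cells and 6393 bp after Adriamycin, with scores of 3100 in both, and H3K79me2 covered 98.4% and 95.7% of the gene span. In the 20 kb downstream it covered 14.0 kb before and 6.16 kb after. There an untreated peak of 5777 bp (score 1508.06) had 2 partners of 1507 and 1879 bp. A further 4 untreated peaks with scores from 51.07 to 123.23 had none. The genes next downstream in the GRCm38 annotation are Tcf19 and Cchcr1, and the untreated Pol II peak of 6678 bp there (score 3100) had partners of 539 and 4661 bp, the higher with a score of 697.26.

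Sox2, a gene without introns, differed little between conditions in the length under H3K4me3 and under the Pol II peak at its promoter. It had no H3K79me2 peak over its start after Adriamycin. Its H3K4me3 peak in untreated cells was 9946 bp wide, from 2103 bp upstream to 7842 bp downstream, and ranked 55th of 38421. After Adriamycin the same stretch held 3 peaks of 2008, 5896 and 1599 bp, and the first 2, with scores of 3100, were 4 bp apart. The gene span was covered in full by H3K4me3 in both lists. The call was thus split but little shorter, since the 3 pieces covered 95.5% of the untreated peak.

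The Pol II peak over the Sox2 start had nearly the same place and width in both lists. It was 3106 bp wide in untreated cells, from 1427 bp upstream to 1678 bp downstream, and 3015 bp after Adriamycin, from 1400 bp upstream to 1614 bp downstream. Both scores were at the ceiling of 3100, which 2.98% of untreated and 0.453% of Adriamycin Pol II peaks reached. Whether the signal was equal cannot be read from them.

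Away from the promoter, the Sox2 window held 6 untreated Pol II peaks and 2 Adriamycin peaks. The untreated peak from 2247 to 4399 bp downstream, across the gene's end, had a score of 1965.82, and its partner had 267.56. Further down, a peak of 2699 bp with a score of 688.38 had a partner of 1028 bp with 52.85. Of the other 4 untreated peaks none had a partner, and the strongest of these was 1828 bp wide with a score of 424.0. Sox2 lies inside the long noncoding gene Sox2ot in the GRCm38 annotation, so peaks in its window can belong to either gene.

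H3K79me2 spread over Sox2 and nearly the whole downstream flank in both conditions. The untreated peak from 2084 bp upstream to 11499 bp downstream was 13584 bp wide with a score of 3100. It had 4 partners, the highest with a score of 1027.5, and the pair nearest the start had 440.68 and 1027.5. The downstream 20 kb were covered to 95.5% in untreated cells and to 94.9% after Adriamycin. Sox2 was also the only one of the 3 genes with H3K27me3 in its window. An untreated peak of 1313 bp from 15426 bp upstream (score 365.48) had a partner of 1351 bp (score 313.27), and a peak of 596 bp beyond it (score 119.59) had none. H3K27me3 covered 1909 and 1351 bp of the window (log2 ratio -0.31 with 1 kb added to each length), short of a 1.5-fold difference that 30.6% of genome tiles of the same length showed.

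The length under peaks in each window was then compared between conditions. Pol II was shorter in all 3 windows. The lengths were 20.5 kb before and 13.1 kb after treatment at Nanog, 20.9 and 10.9 kb at Pou5f1, and 11.9 and 5.72 kb at Sox2. The log2 ratios of Adriamycin over untreated, with 1 kb added to each length, were -0.61, -0.88 and -0.94. Each was past a fold of 1.5, but so were 37.3%, 37.2% and 36.9% of genome tiles of the same length, taken end to end along the chromosomes where either list covered at least 1 kb. The windows stood at the percentiles 35.9, 23.1 and 21.3 of those tiles, within the bulk of the genome.

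H3K4me3 was past that fold at Nanog alone. The lengths at Nanog were 16.0 kb before and 10.3 kb after treatment (log2 ratio -0.59), and 7.55% of tiles were past the fold. The value lay at the edge of the fold and was -0.45 with 5 kb added in place of 1 kb. At Pou5f1 it covered 21.4 and 15.6 kb (-0.43; 7.43% of tiles were past the fold), and at Sox2 19.0 and 18.0 kb (-0.08; 7.42% of tiles). The percentiles were 7.53, 11.7 and 45.9. Among tiles with at least 5 kb covered they were 11.3, 18.8 and 61.3.

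H3K79me2 was past the fold at Pou5f1 alone, where it covered 21.4 kb before and 12.7 kb after treatment (log2 ratio -0.71). Of the tiles, 9.15% were past the fold, and the window stood at percentile 6.77 (3.53 among tiles with at least 5 kb covered). The call came from the downstream flank: with 5 kb in place of 20 kb on each side the ratio was -0.32, and with 10 kb -0.46. At Nanog H3K79me2 covered 16.5 and 16.4 kb (-0.01; 9.1% of tiles past the fold) and at Sox2 23.6 and 23.2 kb (-0.02; 9.07% of tiles).

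**Figure D2:**
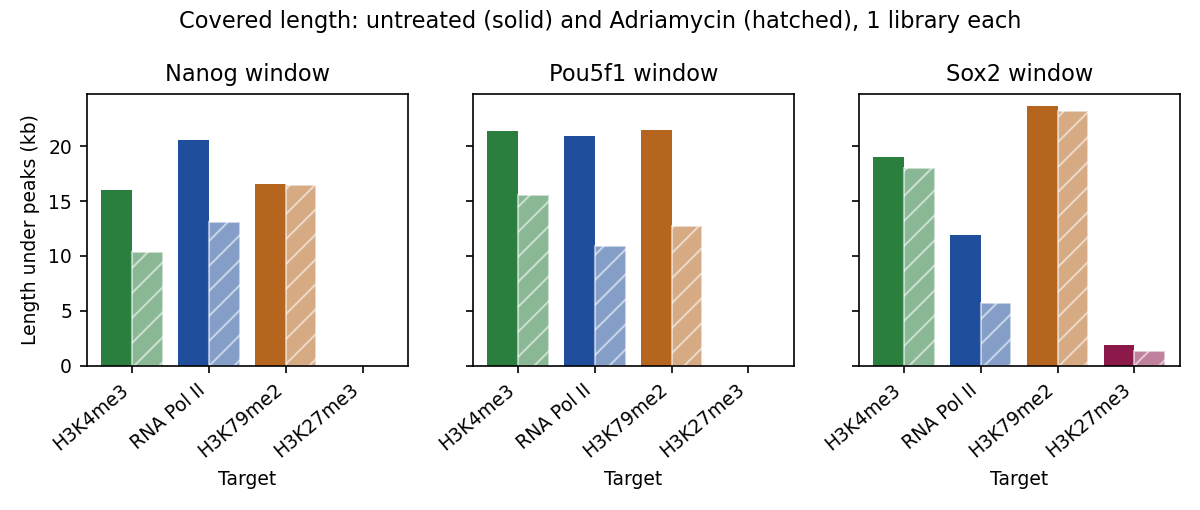
Length under peaks in kb (vertical axis, from 0) for 4 targets in each window, untreated solid and Adriamycin hatched, 1 library per bar and no error bars; hnRNP L had no peak and is not drawn. Pol II bars are shorter after Adriamycin in each window (20.5 to 13.1, 20.9 to 10.9 and 11.9 to 5.72 kb), and H3K79me2 bars are level at Nanog and Sox2.

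**Figure D3:**
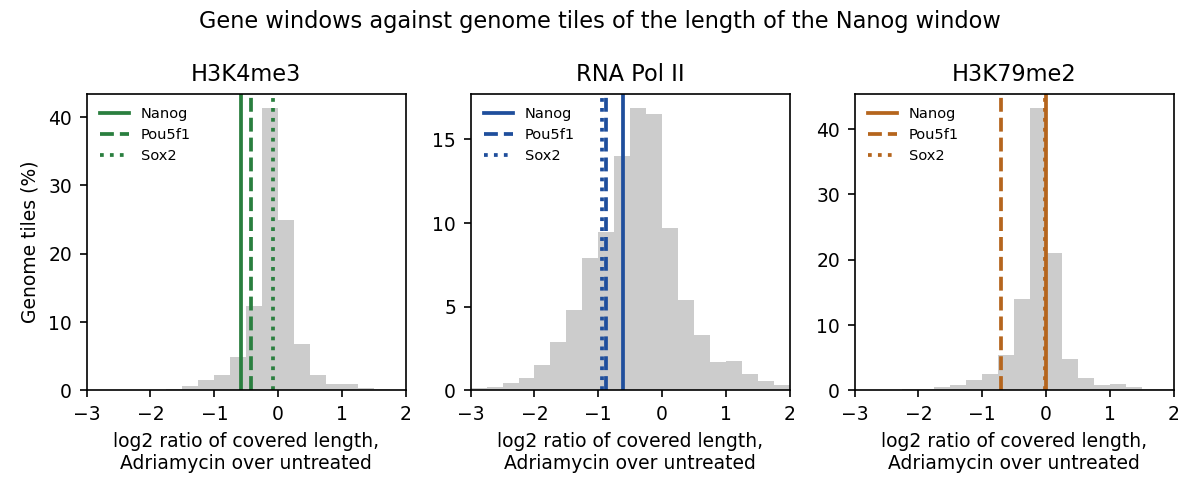
Grey bars show the share of genome tiles (vertical axis, percent) by log2 ratio of covered length, Adriamycin over untreated (horizontal axis), for tiles as long as the Nanog window; lines mark the gene windows. The Pol II lines (-0.61, -0.88 and -0.94) lie within the grey bulk, and the H3K4me3 line of Nanog (-0.59) and the H3K79me2 line of Pou5f1 (-0.71) lie in the lower tail.

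Within the windows, the Pol II length was lowest against its untreated value upstream of Nanog and Pou5f1 and downstream of Sox2. In the 20 kb upstream it was 4724 bp before and 1352 bp after treatment at Nanog, 4910 and 1514 bp at Pou5f1, and 3021 and 1400 bp at Sox2. These are ratios of 0.286, 0.308 and 0.463. Over the gene spans the ratios were 0.608, 0.662 and 0.923. Downstream they were 0.832, 0.555 and 0.371, so the order of the genes there was the reverse of that upstream. Among tiles as long as each gene span, the spans stood at percentiles 34.3, 39.7 and 61.9 by log2 ratio with 1 kb added. The flanks were not set against tiles. Pol II cover was lower across the genome too, with a median log2 ratio of -0.38 in tiles as long as the Nanog window.

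To set the promoters against other H3K4me3 peaks without an annotation, the bases of each target were counted inside untreated H3K4me3 peaks. These were of any width (median 1271 bp over the whole untreated list) and were not shown to be promoters. The peaks over the 3 starts were far wider (9417, 7209 and 9946 bp), and the shares below are not matched for width. A peak entered when it held at least 1 kb of that target in the untreated list. This choice favours lower values after Adriamycin, and can do so more for peaks that held little more than 1 kb. The 3 genes held far more Pol II than that, so they and the other peaks need not be affected alike. Of the peaks that entered for Pol II, 11.7% kept none of it. H3K4me3 itself cannot keep more than 100% by this count. Inside the peak over the start, Pol II kept 62.1% of its bases at Nanog (8078 bp and 5015 bp), 51.6% at Pou5f1 (7092 and 3660 bp) and 67.1% at Sox2 (7001 and 4695 bp). The median over 11963 H3K4me3 peaks was 84.2%, and 28.3%, 21.4% and 32.5% of them kept as little or less. Among the 7026 such peaks whose H3K4me3 score was at the ceiling these shares were 19.0%, 11.7% and 23.7%. With only peaks of a score of at least 100, Pol II kept 47.7% at Nanog, 29.7% at Pou5f1 and 67.1% at Sox2. At Pou5f1 this cutoff drops the Adriamycin peak with a score of 74.7. Scores are not on 1 scale between lists, and the other H3K4me3 peaks were not counted at this cutoff, so these values have no background. Without that cutoff, Nanog and Pou5f1 were past a 1.5-fold difference (at most 66.7% kept), as were 32.1% of the 11963 peaks. Sox2 lay just short of it. H3K4me3 itself kept 71.7% at Nanog, 84.5% at Pou5f1 and 95.5% at Sox2, where the median over 24132 peaks was 90.6% and 15.5% of them were past the fold. Over all of these peaks 18.5% kept as little as Nanog, 34.0% as little as Pou5f1 and 69.4% as little as Sox2. Among the 9208 at the score ceiling the shares were 5.17%, 19.2% and 63.8%. H3K79me2 kept 99.1%, 88.7% and 97.2%, against a median of 96.6% over 9727 peaks, of which 12.9% were past the fold.

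**Figure D4:**
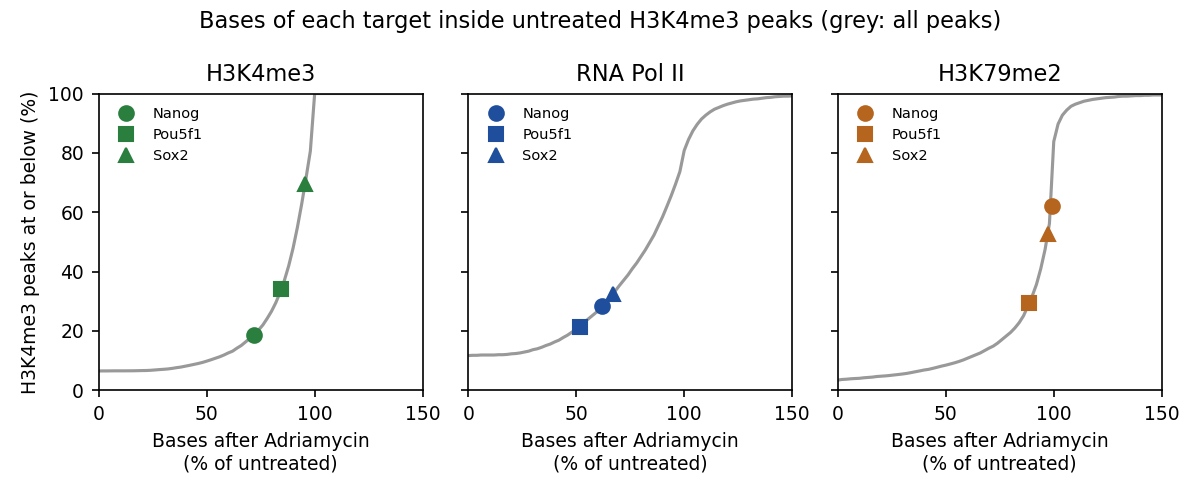
Share of untreated H3K4me3 peaks (vertical axis, percent) whose bases of each target after Adriamycin were at or below a given percent of the untreated bases (horizontal axis), with the peaks over the 3 gene starts as symbols. For H3K4me3 Nanog sits lowest at 71.7% and Sox2 highest at 95.5%; for Pol II all 3 sit between 51.6% and 67.1%, left of the median of 84.2%.

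The peaks without a partner were counted last. For Pol II, 12 of 25 untreated window peaks had no partner, against 48.0% of the untreated list, a share near the background. Their scores ran from 51.87 to 424.0 with a median of 122.11. In the other direction 0 of 22 Adriamycin Pol II peaks lacked an untreated partner, against 26.1% of that list, so no Pol II peak in the windows was seen after treatment alone. Several of the 22 share the same wide untreated peak. Untreated Pol II covered 43.7% of the Nanog, 46.7% of the Pou5f1 and 28.0% of the Sox2 window, so the share of the list is not a like background. For H3K4me3, 4 of 23 untreated and 1 of 22 Adriamycin peaks had no partner (14.5% and 15.8% of the lists). For H3K79me2 they were 5 of 20, 4 of them downstream of Pou5f1, and 1 of 20 (19.0% and 18.0%). For H3K27me3, 1 of 2 untreated peaks had none (41.2% of the list). The 2 peaks seen after Adriamycin alone were both in the Nanog window and weak: an H3K4me3 peak of 498 bp (score 62.76) and an H3K79me2 peak of 344 bp (score 64.11).

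The nearest peaks of the other targets lay far off. The nearest H3K27me3 peak was 83.5 kb from the Nanog start in untreated cells and 75.0 kb after Adriamycin, and 31.4 and 31.3 kb from the Pou5f1 start. It was 14.1 and 14.3 kb from the Sox2 start. For hnRNP L the nearest untreated peak was 892 kb away, at Sox2, and the nearest Adriamycin peak was 77.4 kb away, at Pou5f1, with a score of 51.22.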

How the data were processed

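The data are 10 peak lists, 1 per library, as the authors deposited them. Per the submitters' processing notes, CASAVA 1.8.2 and MACS 1.4.1 were used on mm9. The deposited score of each peak (at least 50) is the authors' value from the peak caller and is not scaled between lists. The sources used here state no read depth, input library or duplicate handling, so depth could not be compared and was not tested beside any result. The gene windows were applied in Python 3.11.15 (pandas 2.3.3, numpy 2.4.6), with figures from matplotlib 3.10.9. Starts were made 1-based. Covered length counts bases under peaks inside a window. Overlap and tile steps were tested on simulated lists. Promoters and neighbour names came from RefSeq (GRCm38.p6). All peaks in the windows were eligible; those printed cover a gene start, are the strongest or longest of their target, or lack a partner, with their neighbours. Members and lists were chosen with earlier results of these data known. The counts inside H3K4me3 peaks and by gene segment, and the distal stretches, were added after the values were seen. Other pluripotency genes were not analysed here, since no mm9 annotation was used.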

Additional observations from a re-analysis of the deposited data

How the results depend on the processing

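Over 30 results and 124 alternative values, 110 stayed on their side of the fold (or, for counts, within 1.5 times), and no value past the fold changed sign. Of the 110, 2 small log2 ratios short of the fold changed sign: H3K4me3 at Sox2 was -0.08 as reported and 0.06 with flanks of 50 kb, and H3K79me2 at Nanog was -0.01 and 0.05 with scores of at least 100. With 5 kb added in place of 1 kb, the log2 ratios were -0.45 for H3K4me3 and -0.49 for Pol II at Nanog and -0.58 for H3K79me2 at Pou5f1, all short of the fold. H3K79me2 at Pou5f1 was also short of it with flanks of 5 kb (-0.32) or 10 kb (-0.46) and with scores of at least 100 (-0.51). Pol II at Sox2 was -0.43 with flanks of 5 kb, and H3K27me3 at Sox2 was past the fold with flanks of 50 kb (-1.11). With scores of at least 100, window peaks with a partner numbered 12 for untreated H3K4me3 (19 without that filter) and 13 for Adriamycin Pol II (22 without it). With peaks within 1 kb joined, they were 8 and 11 for untreated and Adriamycin Pol II and 5 and 6 for H3K79me2, since joining leaves fewer peaks. Percentiles moved by little with shifted tiles in 10 of 10 cases, and moved in 9 of 9 when tiles had to hold at least 5 kb. The bases kept inside H3K4me3 peaks were recomputed with settings chosen after seeing the data: Pol II at Pou5f1 was 29.7% with scores of at least 100, against 51.6%. Scores are not on 1 scale between lists, so this cutoff need not be equally strict for both. No replicate could be left out, and no paired analysis was possible because each target has 1 library per condition.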

Other observations

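Beyond the windows, a cluster of peaks in the 25 kb that begin 100 kb downstream of the Sox2 start was present in untreated cells and nearly absent after Adriamycin. The stretch is chromosome 3 at 34648927-34673926 on mm9, and it was chosen after its values were seen. It is on the side where a distal enhancer cluster of Sox2 is known in mouse embryonic stem cells. H3K4me3 had 3 untreated peaks there, which covered 7558 bp with scores up to 447.95, and 0 Adriamycin peaks. H3K79me2 had 7 untreated peaks over 11598 bp, with scores up to 184.35, and 0 Adriamycin peaks. Pol II had 9 untreated peaks over 10740 bp, the strongest 2474 bp wide with a score of 488.22, and 1 Adriamycin peak of 1178 bp with a score of 50.1. The log2 ratios were -3.10 for H3K4me3, -3.66 for H3K79me2 and -2.43 for Pol II. Of tiles of 25 kb, 8.21%, 10.1% and 36.9% were lower by at least 1.5-fold, and 0.00527% (1 of 18979), 0.0269% (4 of 14871) and 0.646% (117 of 18124) had a ratio as low. The stretch was picked for its loss and placed around it, while the tiles lie on a fixed grid. These shares thus do not measure how rare such a loss is, and they test nothing. The Pol II peak at the Sox2 start differed by little in place and width, as given above. H3K27me3 and hnRNP L had no peak in the stretch in either condition.

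A second stretch, with less Pol II and H3K4me3 after Adriamycin, lay between 50 and 30 kb upstream of the Nanog start. It is on chromosome 6 at 122607586-122627585 and was also chosen after its values were seen. Pol II had 4 untreated peaks over 5891 bp, with scores up to 261.44, and 0 after Adriamycin. H3K4me3 had 3 untreated peaks over 5279 bp and 1 Adriamycin peak of 1428 bp (log2 ratio -1.37). H3K79me2 had 1 peak of 1031 bp in untreated cells (score 50.54) and 1 of 1294 bp after Adriamycin (score 134.29), a log2 ratio of 0.18. The untreated score is near the lowest of its list (50), so the H3K79me2 ratio rests on a peak near the floor. Of tiles of 20 kb, 36.6% for Pol II, 8.46% for H3K4me3 and 10.7% for H3K79me2 were lower by at least 1.5-fold. A ratio as low was found in 0.257% of tiles for Pol II, 1.34% for H3K4me3 and 86.9% for H3K79me2. These shares test nothing either, since the stretch was chosen from its values.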
